A study of Homo sapiens with 42 samples.

Results

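The response of SUPB15 and RS411, 2 B-precursor acute lymphoblastic leukemia lines, to L-asparaginase was set against that of 3 other B-precursor lines, Nalm6, REH and 697. These 5 lines account for 30 of the 42 RNA-seq libraries and for 5 of the 7 cell lines of the series, with 12 libraries of SUPB15 and RS411 and 18 libraries of Nalm6, REH and 697. In each line 3 libraries came from cells exposed to 1 IU/ml L-asparaginase for 4 h and 3 from untreated cells, and per the labels each line was taken through 3 independent experiments. Each is 1 established cell line. SUPB15 carries the BCR-ABL1 fusion, RS411 the KMT2A-AFF1 fusion and REH the ETV6-RUNX1 fusion, so that the fusion, the lineage stage and every other feature that separates these lines cannot be told apart. Error bars and p-values measure the spread between libraries of a line and say nothing of the spread between lines, of which there were 2 against 3.

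The 2 lines were grouped on these same data, because they responded alike and hardly expressed ASNS, the enzyme that makes asparagine from aspartate and glutamine. The values that chose them are given here as a description. ASNS was at 1.81, 1.28 and 1.44 CPM with L-asparaginase and 1.04, 1.53 and 1.09 CPM untreated in SUPB15 (CPM, counts scaled to library size and composition) and at 1.49, 1.24 and 1.08 CPM with L-asparaginase and 1.47, 1.2 and 1.3 CPM untreated in RS411. In Nalm6 ASNS was at 101, 97.4 and 121 CPM treated and 49.7, 109 and 58.6 CPM untreated. REH held 131, 203 and 222 CPM treated and 74.4, 72.8 and 56.4 CPM untreated, and 697 held 181, 248 and 216 CPM treated and 38.8, 50.9 and 43.2 CPM untreated. No library of SUPB15 or RS411 reached the lowest library of the other 3 lines. The quantity followed below is the contrast, the mean log2 response (L-asparaginase minus untreated) of SUPB15 and RS411 minus the mean log2 response of Nalm6, REH and 697, with its standard error (SE). A positive contrast marks a gene that was higher after L-asparaginase, relative to untreated cells, in the pair than in the other lines, whether it went up in the pair or down in the others. For ASNS the contrast was -1.31 ± 0.24.

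L-asparaginase breaks down extracellular asparagine and, more slowly, glutamine. Cells short of an amino acid accumulate uncharged tRNA, which activates the kinase GCN2, raises translation of the transcription factor ATF4 and induces ATF4 targets, among them amino acid transporters, tRNA synthetases, biosynthetic enzymes and the pro-apoptotic factor DDIT3; this is the integrated stress response. A separate pathway, the unfolded protein response, adjusts chaperones of the endoplasmic reticulum to the load of newly made proteins, and cytosolic chaperones are governed mainly by the heat shock factor HSF1. Leukemic lymphoblasts with little ASNS depend on asparagine from outside, which is the basis for the clinical use of the enzyme.

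The libraries held 15071218 to 77143333 counts. All 10 B-lineage markers examined, among them CD22, CD79A, PAX5 and EBF1, were listed above 0 in every group except that 1 was at 0 in untreated REH cells, and their summed level was 1096 to 3049 CPM. T-lineage marker sums reached 305 CPM in RS411 and at most 93.3 CPM in the other lines. Myeloid markers summed to at most 73.8 CPM, stromal markers to at most 148 CPM and erythroid markers to at most 4.26 CPM. Treated libraries stood above untreated ones without overlap for the summed T-lineage markers in SUPB15 (36.8 to 46.3 CPM with L-asparaginase and 13.3 to 22.1 CPM untreated), REH (49.0 to 56.4 and 29.4 to 32.6 CPM) and 697 (77.6 to 93.3 and 22.2 to 73.2 CPM). The same held for myeloid sums in RS411 (20.9 to 24.3 CPM with L-asparaginase and 8.69 to 14.3 CPM untreated) and 697, for stromal sums in SUPB15 (70.6 to 83.2 CPM with L-asparaginase and 53.1 to 68.0 CPM untreated), Nalm6, REH and 697, and for erythroid sums in REH. The part of such transcripts in the results was not tested. In bulk RNA, fewer cells of a type and less RNA per cell cannot be told apart.

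Some libraries stood apart. In SUPB15 L-asparaginase replicate C, 89 genes at 1 CPM or more had no more than 3 counts in total over the other 5 libraries of the line. There were 19 such genes in REH L-asparaginase replicate A, 3 in RS411 L-asparaginase replicate B and 0 in every other library of the 5 lines. The first untreated libraries of Nalm6, SUPB15, RS411 and 697 deviated from the other untreated libraries of their lines in a shared direction (Pearson r 0.60 to 0.83 between lines across 9454 genes). Small noncoding RNAs took 3.35% to 7.23% of the counts in those 4 libraries and up to 17.8% elsewhere in the 5 lines. Counts of genes with the pair on 1 side are therefore also given without the 4 first untreated libraries or without the 3 treated libraries where either changes them by more than 1.5 times, and for the leading lists in any case.

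With all 30 libraries in the edgeR fit, SUPB15 and RS411 were the most alike of the 10 pairs of lines. Only 101 of 19702 genes tested (0.513%) differed in response between them, by edgeR's quasi-likelihood test at an adjusted p under 0.05, against 215 for Nalm6 and REH, the next closest pair, and 1761 for SUPB15 and 697, the farthest. Their log2 responses had a Pearson r of 0.54 across 9454 genes, against 0.27 to 0.45 for the other 9 pairs. The count of 101 was 557 without the 4 first untreated libraries and 336 with DESeq2 in place of edgeR. Both are above 215, and the other 9 pairs were not compared under those settings. The order of the pairs by this count is therefore known for the fit of all 30 libraries only. Likeness was a ground for choosing the lines, so these values describe the choice and are no test of it. The closeness of the pair to each other, and of Nalm6 to REH, appears in the plot of line pairs.

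**Figure D1:**
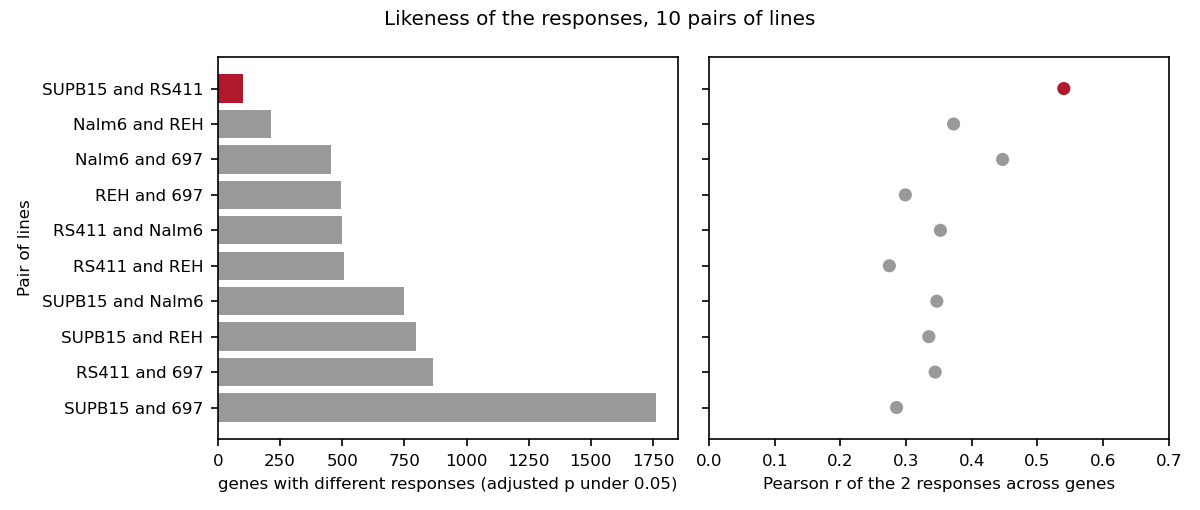
Number of genes whose response to L-asparaginase differed between 2 lines (bars, edgeR adjusted p under 0.05, of 19702 tested) and Pearson r of their log2 responses across 9454 genes (points), for the 10 pairs of the 5 B-precursor lines. In this fit of all 30 libraries SUPB15 and RS411 had the fewest differing genes, 101, and the highest r, 0.54.

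Taken line by line, each against its own untreated libraries, L-asparaginase changed 3950 genes in SUPB15 (26.1% of those tested; 12.9% were higher and 13.2% lower) and 2087 in RS411 (12.8%; 7.58% higher and 5.19% lower). It changed 3110 genes in Nalm6 (20.8%; 8.96% higher and 11.8% lower), 4120 in REH (26.5%; 13.2% higher and 13.3% lower) and 367 in 697 (2.4%; 1.55% higher and 0.849% lower). The REH count was 6683 with the replicate letter as a block. Leaving out 1 library moved the count by more than 1.5 times in every line. It was 1716 in SUPB15 without L-asparaginase replicate B and 6328 without its first untreated library, and 272 in RS411 without L-asparaginase replicate C and 4517 without its first untreated library. It was 1683 in Nalm6 and 2429 in REH without L-asparaginase replicate B. It was 5 in 697 without L-asparaginase replicate 3 and 3664 without its first untreated library. Counts therefore cannot rank the lines. Across the 5 lines the response differed for 2271 genes (11.5% of 19702) by an F test of the treatment-by-line terms that uses no grouping of the lines; without the 4 first untreated libraries there were 5013, and without the 3 treated ones 1432.

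Among the 2271 genes, 672 (3.41% of all tested) had both responses of the pair above all 3 others and 435 (2.21%) had both below. The contrast itself passed the threshold for 1742 genes (8.84%), 1024 higher (5.2%) and 718 lower (3.64%), which is printed as background only because the lines were chosen on this response (2762 in all without the first untreated library of 697). Its median over all genes was 0.01. The genes shown first are the 15 largest and 15 smallest contrasts among those 672 and 435 genes that were also tested in all 5 separate fits and had a mean log2 CPM of at least 1 over the 30 libraries. The last inside were SLC30A1 at 1.94 and ABCE1 at -1.47, and the first outside were ATP1B1 at 1.79 and DDX3X at -1.47. Since the contrast chose these genes, their values are descriptions with no test.

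At the upper end stood ATF3 and CHAC1 of the integrated stress response and the immediate early genes NR4A1, JUN and KLF2. With them were the growth factor HBEGF, the Notch ligand JAG2, the WNT antagonist NKD2, and PFKFB4 and P4HA2, which are induced by hypoxia. The rest were the ion channel KCNJ2, the ion carriers SLC12A7 and SLC30A1, the linker histone HIST1H1T and the synaptic adhesion protein CLSTN3. The contrasts of all these genes ran from 1.94 to 2.95. The group holds both genes that went up in the pair and genes that went down in the others. SLC30A1, a zinc exporter of the plasma membrane, did both. It was at 119, 125 and 125 CPM with L-asparaginase and 35.2, 50.1 and 32.1 CPM untreated in SUPB15 and at 62.9, 63.2 and 67.4 CPM with L-asparaginase and 24.1, 22.3 and 38.6 CPM untreated in RS411. In Nalm6 SLC30A1 was at 38.7, 36.5 and 36.6 CPM treated and 38.9, 35.9 and 35 CPM untreated. REH held 80.5, 106 and 98.5 CPM treated and 162, 166 and 149 CPM untreated, and 697 held 79.4, 105 and 93 CPM treated and 156, 163 and 186 CPM untreated. Treated and untreated libraries did not overlap in SUPB15, RS411, REH or 697, upward in the pair and downward in the other 2 of these lines, while Nalm6 values overlapped.

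KCNJ2, an inwardly rectifying potassium channel, had the second largest contrast, 2.82 ± 0.25, from very different levels. It was at 13.7, 12.2 and 15.3 CPM with L-asparaginase and 1.63, 1.59 and 1.99 CPM untreated in SUPB15 and at 0.954, 0.40 and 0.645 CPM with L-asparaginase and 0.174, 0.0554 and 0.126 CPM untreated in RS411. In the other lines it was far higher throughout, at 68.3, 45.3 and 49.1 CPM with L-asparaginase and 40.3, 34.5 and 43.8 CPM untreated in Nalm6, at 33.2, 38.7 and 28.6 CPM with L-asparaginase and 65.4, 52.8 and 82.2 CPM untreated in REH and at 389, 459.8 and 435 CPM with L-asparaginase and 378, 371 and 273 CPM untreated in 697. Every treated library lay above every untreated one in the pair, in Nalm6 and in 697, and below in REH. HIST1H1T, a linker histone best known from the testis, was at 43.4, 74.1 and 71.7 CPM with L-asparaginase and 4.42, 7.38 and 3.88 CPM untreated in SUPB15. In RS411 HIST1H1T was at 33.9, 57.8 and 48.9 CPM treated and 11, 21.7 and 13.9 CPM untreated. REH moved the same way, with 56.8 to 106 CPM treated and 24 to 38.1 CPM untreated, while Nalm6 and 697 overlapped. JAG2 was at 22.5, 28 and 26.9 CPM with L-asparaginase and 8.19, 15.8 and 12.5 CPM untreated in SUPB15. In RS411 JAG2 was at 6.62, 5.5 and 6.48 CPM treated and 1.12, 0.776 and 0.794 CPM untreated. Treated and untreated libraries did not overlap in either line. Nalm6 and REH lay without overlap on the other side, and 697 overlapped. CLSTN3 owes its place to 1 library: SUPB15 L-asparaginase replicate C had 4.83 CPM, against 0.866 and 0.452 CPM in the other 2 treated libraries of that line.

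**Figure D2:**
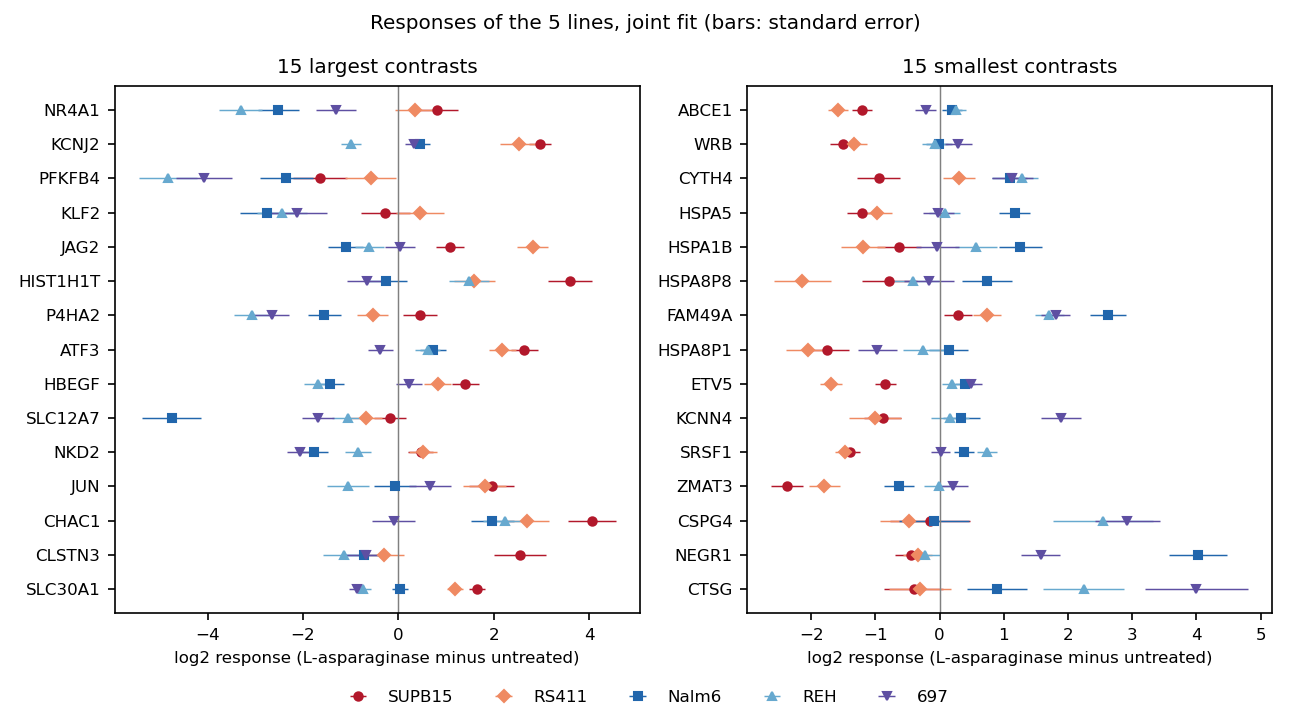
Log2 response to L-asparaginase (treated minus untreated) with its standard error in each of the 5 lines, from the joint edgeR model, for the 15 largest and 15 smallest contrasts. SUPB15 and RS411 lie on 1 side of Nalm6, REH and 697 for every gene because that was a condition of the choice; the distance ranges from 1.47 to 2.95.

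At the lower end stood SRSF1, a splicing factor, ABCE1, which recycles ribosomes after translation ends, WRB, a receptor for tail-anchored proteins at the endoplasmic reticulum, ZMAT3, an RNA-binding p53 target, the chaperones HSPA5 and HSPA1B, the pseudogenes HSPA8P1 and HSPA8P8, the transcription factor ETV5, the potassium channel KCNN4 and CTSG, NEGR1, CSPG4, FAM49A and CYTH4. The first 4 were lower with L-asparaginase in both lines of the pair. SRSF1 was at 187, 232 and 211 CPM with L-asparaginase and 610.5, 523 and 525 CPM untreated in SUPB15 and at 200.4, 202 and 181 CPM with L-asparaginase and 567, 534 and 513 CPM untreated in RS411. In Nalm6 SRSF1 was at 619.9, 804 and 764 CPM treated and 614, 499 and 568 CPM untreated. REH held 806, 1024 and 949 CPM treated and 566, 616 and 484 CPM untreated, and 697 held 816, 778 and 624 CPM treated and 901, 651 and 641 CPM untreated. All 6 treated libraries of the pair lay below all 6 of its untreated libraries, whereas treated Nalm6 and REH libraries lay above their untreated ones and 697 overlapped.

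ABCE1 was at 116, 153 and 167 CPM with L-asparaginase and 328, 337 and 339 CPM untreated in SUPB15. In RS411 ABCE1 was at 94.3, 97 and 93.1 CPM treated and 279, 301 and 273 CPM untreated. Neither line had overlap. In Nalm6, REH and 697 treated libraries held 231 to 329, 262 to 359 and 319.8 to 362 CPM against 224 to 302, 253 to 278 and 346 to 489.9 CPM untreated, in that order, and overlapped in all 3. WRB followed the same pattern at lower levels, 7.41, 8.28 and 9.1 CPM with L-asparaginase and 16.5, 26.1 and 27.5 CPM untreated in SUPB15 and 7.61, 6.15 and 5.59 CPM with L-asparaginase and 13.8, 18.4 and 16.7 CPM untreated in RS411, with overlap in the other 3 lines. ZMAT3 was at 4.7, 3.27 and 4.03 CPM with L-asparaginase and 20.3, 20.3 and 21.1 CPM untreated in SUPB15. In RS411 ZMAT3 was at 11.6, 7.16 and 6.02 CPM treated and 43.7, 22.5 and 19.7 CPM untreated. Nalm6 also lay lower after treatment, 39.7 to 54 against 67.9 to 71.2 CPM untreated, and REH and 697 overlapped.

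Other genes at the lower end were higher with L-asparaginase in the other lines instead. CTSG, a serine protease of neutrophil granules, was at 5.19, 1.79 and 1.34 CPM with L-asparaginase and 7.29, 1.66 and 1.5 CPM untreated in RS411, with more spread between RS411 replicates than between treatments. It was at 0.528, 1.25 and 1.29 CPM with L-asparaginase and 0.206, 0.243 and 0.226 CPM untreated in REH and at 1.09, 0.958 and 0.737 CPM with L-asparaginase and 0.0653, 0.109 and 0.0182 CPM untreated in 697, without overlap. NEGR1, a neuronal cell adhesion protein, was at 3.73, 4.1 and 3.68 CPM with L-asparaginase and 6.02, 4.96 and 4.82 CPM untreated in SUPB15 against 0.372, 0.969 and 1.43 CPM with L-asparaginase and 0.0835, 0.080 and 0.0267 CPM untreated in Nalm6. For CSPG4, the NG2 proteoglycan that marks leukemias with KMT2A fusions, RS411 held 79.1, 64.1 and 56.3 CPM with L-asparaginase and 78.8, 105 and 93.1 CPM untreated, 697 had 13.1, 18.1 and 13.8 CPM and 1.37, 2.08 and 2.43 CPM, and the REH part rests on L-asparaginase replicate A (3.23 CPM, against 0.322 and 0.376 CPM in the other 2). HSPA8P1 and HSPA8P8 are pseudogenes of HSPA8 and may hold reads of that gene.

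Among the lists, endoplasmic reticulum chaperones held the most genes that differed among the 5 lines with the pair on 1 side. Of 20 genes, 13 differed in response among the 5 lines, all 13 with both responses of the pair below the other 3, against 2.21% of all genes tested; 14 did so without the 4 first untreated libraries and 11 without the 3 treated ones. Their median contrast was -0.74. Within lines, 8 fell and 2 rose in SUPB15 (background 13.2% and 12.9%) and 7 fell and 3 rose in RS411 (5.19% and 7.58%), whereas 10 rose and 0 fell in Nalm6 and in REH (6 rose in REH without L-asparaginase replicate A). In 697, 1 rose and 0 fell, and 11 rose and 0 fell without its first untreated library. The RS411 count was less firm, with 1 falling and 2 rising without L-asparaginase replicate B; in SUPB15, 5 fell and 1 rose without replicate C.

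The promoters of 3 of the chaperones that fell hold the endoplasmic reticulum stress response element, the sequence through which ATF6 and NF-Y induce these genes, and are shown because these 3 are among the 4 chaperones with the smallest contrasts. The element was searched as CCAAT and CCACG with any 9 bases between them, on both strands of the 250 bases before each RefSeq gene start (GRCh38.p14; counts were made on hg19). Capitals mark the matches, and each run reads 5' to 3' on the gene's strand. HSPA5 lies at chr9:125241361-125241439 on the minus strand, HSP90B1 at chr12:103930186-103930369 on the plus strand and CALR at chr19:12938359-12938432 on the plus strand.
HSPA5: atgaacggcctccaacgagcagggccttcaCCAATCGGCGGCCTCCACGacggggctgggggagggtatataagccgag
HSP90B1: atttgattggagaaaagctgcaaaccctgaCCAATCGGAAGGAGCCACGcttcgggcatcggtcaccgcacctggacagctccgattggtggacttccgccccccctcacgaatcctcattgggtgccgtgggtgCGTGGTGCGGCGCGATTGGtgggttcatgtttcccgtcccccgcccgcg
CALR: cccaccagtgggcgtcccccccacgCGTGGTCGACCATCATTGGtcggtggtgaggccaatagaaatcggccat
The element was found in 22 of 27305 promoters (0.0806%), in 6 of the 19 matched chaperone promoters (31.6%) and in 0 of 17 promoters of cytosolic heat shock proteins. Besides the 3 shown, CANX, CRELD2 and XBP1 held it. A match describes letters and is not a binding site, and XBP1 did not move with HSPA5.

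HSPA5, the main chaperone of the endoplasmic reticulum lumen, was at 60.2, 60.6 and 57.8 CPM with L-asparaginase and 127, 128 and 157 CPM untreated in SUPB15 and at 54.9, 54.5 and 57.5 CPM with L-asparaginase and 101, 119 and 110.1 CPM untreated in RS411. In Nalm6 HSPA5 was at 173, 436 and 317 CPM treated and 118, 85.3 and 207 CPM untreated. REH held 115, 96.6 and 101 CPM treated and 103, 94.6 and 98.4 CPM untreated, and 697 held 195, 194 and 227 CPM treated and 234, 219.9 and 171 CPM untreated. Treated libraries lay below untreated ones in the pair, with log2 responses of -1.21 ± 0.12 in SUPB15 (± SE, edgeR adjusted p = 0.00057) and -0.98 ± 0.10 in RS411 (edgeR adjusted p = 0.002). The groups overlapped in Nalm6, where 2 of 3 treated libraries were above all untreated ones (1.2 ± 0.34, edgeR adjusted p = 0.032), and overlapped without a call in REH and 697. The 5-line difference had an edgeR adjusted p of 0.00019.

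HSP90B1, the HSP90 of the same compartment, was at 368, 438 and 413 CPM with L-asparaginase and 959, 727 and 804 CPM untreated in SUPB15 and at 298, 347 and 347 CPM with L-asparaginase and 641, 523 and 517 CPM untreated in RS411. Log2 responses were -1.04 ± 0.15 in SUPB15 (edgeR adjusted p = 0.0022) and -0.76 ± 0.14 in RS411 (edgeR adjusted p = 0.012), while none of the other 3 lines passed (0.82 ± 0.30 in Nalm6, 0.21 ± 0.12 in REH and 0.24 ± 0.30 in 697). CALR, a lectin chaperone for glycoproteins, fell in SUPB15 and RS411 (log2 response -0.61 ± 0.13 and -0.60 ± 0.12) and rose in REH (0.44 ± 0.11), with edgeR adjusted p = 0.0094, 0.016 and 0.014 in that order. SDF2L1, a partner of HSPA5, was -1.01 ± 0.21 in SUPB15 and 1.21 ± 0.33 in Nalm6 (edgeR adjusted p = 0.0082 and 0.026), and did not pass in RS411 (-0.59 ± 0.18). PDIA4, MANF, PDIA3, DNAJB11, CRELD2, HYOU1, SEL1L, DNAJC3 and DNAJC10 were the other 9 of the 13, with contrasts from -1.11 to -0.53.

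The list was not uniform. HERPUD1 and XBP1, named here after their values were seen because they went against the rest, rose in both lines of the pair. HERPUD1, a component of the machinery that removes misfolded proteins, was at 77.2, 83.6 and 89.9 CPM with L-asparaginase and 20.5, 26.4 and 44 CPM untreated in SUPB15. In RS411 HERPUD1 was at 111, 85.9 and 88.3 CPM treated and 50.2, 45 and 52.3 CPM untreated. It rose in both (edgeR adjusted p = 0.0036 in SUPB15 and 0.0062 in RS411). XBP1, a transcription factor of the unfolded protein response, was at 1658, 2479 and 2838 CPM with L-asparaginase and 829, 1325 and 1502 CPM untreated in SUPB15. In RS411 XBP1 was at 552, 637 and 658 CPM treated and 285, 359 and 310.4 CPM untreated. It also rose in both (edgeR adjusted p = 0.028 in SUPB15 and 0.0045 in RS411). In neither gene did treated and untreated libraries overlap, and the 5-line differences did not pass (edgeR adjusted p = 0.16 and 0.28).

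**Figure D3:**
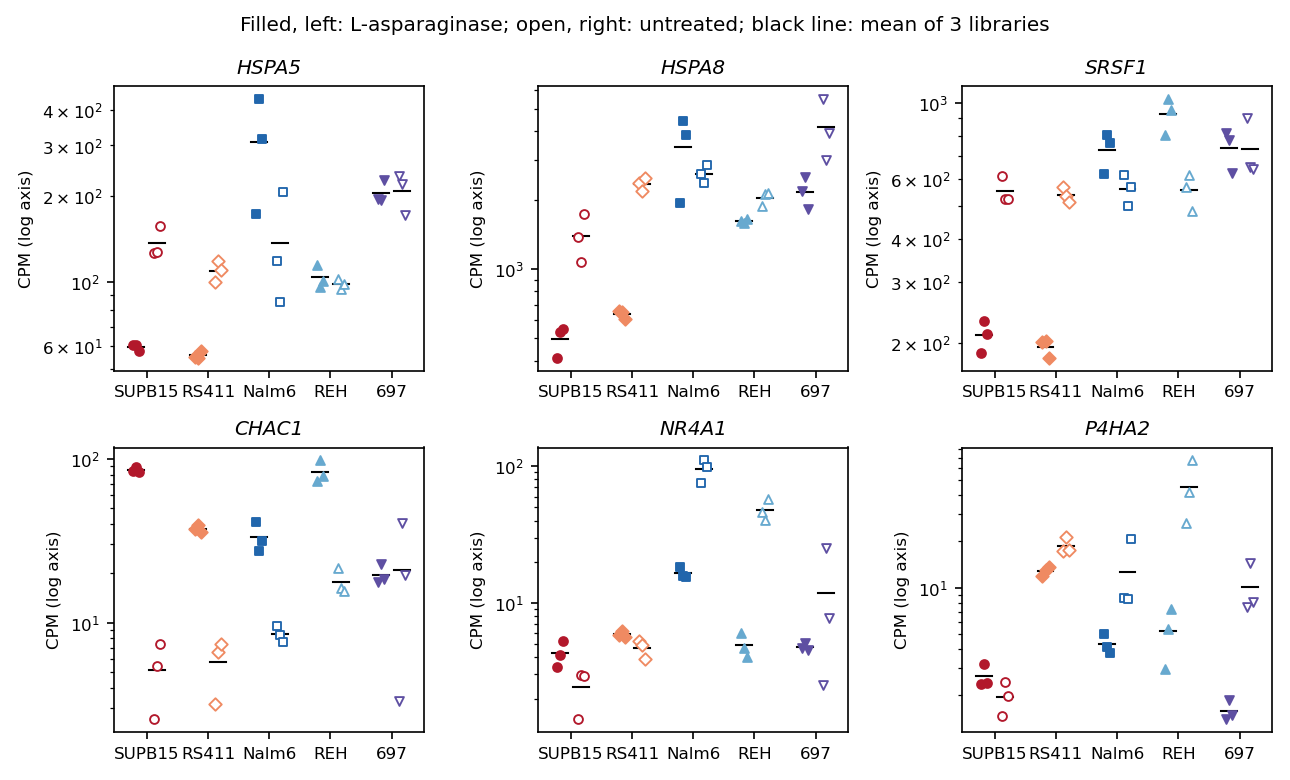
Level in CPM (log axis) of HSPA5, HSPA8, SRSF1, CHAC1, NR4A1 and P4HA2 in each of the 30 libraries; filled points are L-asparaginase, open points untreated, and the black line is the mean of 3 libraries. HSPA5, HSPA8 and SRSF1 were lower after treatment in all libraries of SUPB15 and RS411, and NR4A1 was lower after treatment in Nalm6 and REH.

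Cytosolic heat shock proteins, in a list that also held the mitochondrial HSPD1 and HSPE1, fell in the pair as well. Of 17 genes, 10 differed among the lines and 7 of these had both responses of the pair below the other 3. That 7 was 9 without the 4 first untreated libraries and 6 without the 3 treated ones. Of all genes tested, 11.5% differed and 2.21% did so with the pair below. The median contrast was -0.55, and all 17 contrasts were negative. In SUPB15, 10 fell and 0 rose, and in RS411, 13 fell and 0 rose (background 13.2% and 5.19% lower). In each line 6 fell without replicate C of SUPB15 or replicate B of RS411. In Nalm6, 1 rose and 0 fell, and in REH 2 rose and 2 fell (3 and 5 with the replicate letter as a block). In 697 0 passed, and 3 fell without its first untreated library. Median log2 responses of the list were -0.63 in SUPB15, -0.92 in RS411, 0.18 in Nalm6, -0.04 in REH and -0.44 in 697. HSPA8, the constitutive HSP70, was at 410.4, 531 and 549.6 CPM with L-asparaginase and 1383, 1073 and 1743 CPM untreated in SUPB15 and at 656, 654 and 606 CPM with L-asparaginase and 2364, 2189 and 2484 CPM untreated in RS411. In Nalm6 HSPA8 was at 1947, 4412 and 3836 CPM treated and 2606, 2379 and 2833 CPM untreated. REH held 1621, 1587 and 1651 CPM treated and 1886, 2117 and 2139 CPM untreated, and 697 held 2190.5, 2511 and 1832 CPM treated and 5509, 2987 and 3928 CPM untreated. The pair's treated libraries lay below every untreated one, with log2 responses of -1.5 ± 0.20 in SUPB15 and -1.87 ± 0.13 in RS411 (edgeR adjusted p = 0.0016 and 0.00062). REH and 697 lay lower without passing the test (-0.33 ± 0.15 and -0.93 ± 0.31), and Nalm6 overlapped.

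HSPA8 was the only one of the 17 matched promoters to hold the heat shock element, searched on both strands as GAA, TTC and GAA with any 2 bases between them and found in 120 of 27305 promoters (0.439%). Its 2 matches, which face opposite strands, are in capitals below (chr11:123062149-123062386, minus strand, RefSeq GRCh38.p14).
HSPA8: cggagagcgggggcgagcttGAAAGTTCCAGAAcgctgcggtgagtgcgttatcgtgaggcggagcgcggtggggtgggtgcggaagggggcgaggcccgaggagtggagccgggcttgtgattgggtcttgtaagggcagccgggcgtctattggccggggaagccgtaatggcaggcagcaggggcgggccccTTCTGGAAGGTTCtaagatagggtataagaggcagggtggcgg
HSPE1, the cochaperone of mitochondrial HSP60, was at 14.5, 17.8 and 21.1 CPM with L-asparaginase and 25.7, 37.8 and 46.5 CPM untreated in SUPB15. In RS411 HSPE1 was at 25, 30.3 and 24.4 CPM treated and 36.7, 75.7 and 69.5 CPM untreated. It fell in both, without overlap (edgeR adjusted p = 0.0091 in SUPB15 and 0.018 in RS411). The inducible HSP70 genes HSPA1A and HSPA1B are near-identical, and reads can be split between them. HSPA1B fell in both lines of the pair, 3.43 to 3.95 against 5.72 to 5.93 CPM untreated in SUPB15 and 7.13 to 7.66 against 10.5 to 26.5 CPM untreated in RS411, and rose in Nalm6 and REH (edgeR adjusted p = 0.021, 0.04, 0.0068 and 0.015 in that order). HSPA1A was at 1.02 to 1.27 CPM treated and 3.32 to 8.42 CPM untreated in SUPB15 and at 0.108 to 0.702 CPM treated and 4.19 to 9.0 CPM untreated in RS411, and at no more than 0.541 CPM in any library of the other 3 lines.

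Genes of the integrated stress response rose in the pair, in which ASNS was low. Of the regulator list, 15 of 20 genes rose and 3 fell in SUPB15 and 11 of 19 rose and 1 fell in RS411 (background 12.9% and 7.58% higher). In REH 13 of 19 rose and 1 fell, in Nalm6 9 of 19 rose and 3 fell, and in 697 4 of 20 rose and 1 fell (11 and 4 without its first untreated library). The falling count was 1 in SUPB15 without replicate C and 0 in RS411 without replicate B. Of 20 genes, 9 differed among the lines, and ATF3, CHAC1 and DDIT3 had both responses of the pair above the other 3 (7 genes without the 4 first untreated libraries). The median contrast was 0.31. The stress markers SESN2, DDIT4, INHBE and SLC7A11 rose in both lines of the pair and did not pass the 5-line test, with edgeR adjusted p of 0.27, 0.41, 0.07 and 0.36.

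DDIT3, the pro-apoptotic transcription factor CHOP, was at 127, 157 and 175 CPM with L-asparaginase and 13.8, 14.5 and 16.1 CPM untreated in SUPB15 and at 114, 127 and 121 CPM with L-asparaginase and 16.1, 16.5 and 18.6 CPM untreated in RS411. In Nalm6 DDIT3 was at 61.1, 52.8 and 46 CPM treated and 9.18, 10.1 and 9.37 CPM untreated. REH held 34.2, 60.3 and 45.8 CPM treated and 17.6, 9.81 and 8.75 CPM untreated, and 697 held 53.7, 66.7 and 41.4 CPM treated and 16, 19.7 and 19 CPM untreated. It rose in all 5 lines without overlap, by 3.36 ± 0.15 in SUPB15, 2.83 ± 0.11 in RS411, 2.51 ± 0.14 in Nalm6, 1.98 ± 0.26 in REH and 1.57 ± 0.22 in 697 (the edgeR adjusted p was at most 0.023), and the rise differed among the lines (edgeR adjusted p = 0.0012). CHAC1, an enzyme that degrades glutathione, was at 84.2, 89.3 and 83.2 CPM with L-asparaginase and 2.56, 5.43 and 7.37 CPM untreated in SUPB15 and at 37.4, 39.2 and 35.6 CPM with L-asparaginase and 3.18, 6.63 and 7.41 CPM untreated in RS411. In Nalm6 CHAC1 was at 41.1, 27.2 and 31.5 CPM treated and 9.46, 8.4 and 7.64 CPM untreated. REH held 72.9, 97.6 and 78.5 CPM treated and 21.5, 16.2 and 15.6 CPM untreated, and 697 held 17.6, 22.9 and 18.3 CPM treated and 3.33, 40.4 and 19.4 CPM untreated. Treated libraries lay above untreated ones without overlap in every line but 697, whose untreated libraries ranged from 3.33 to 40.4 CPM.

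ATF3, a stress-induced transcription factor, was at 33.9, 41 and 45.3 CPM with L-asparaginase and 3.86, 5.39 and 9.95 CPM untreated in SUPB15 and at 36.5, 42.2 and 41.7 CPM with L-asparaginase and 7.5, 8.62 and 10.4 CPM untreated in RS411. It rose by 2.64 ± 0.31 and 2.18 ± 0.15 in these lines and by 0.75 ± 0.18 in Nalm6 and 0.63 ± 0.15 in REH, and gave -0.37 ± 0.31 in 697 (edgeR adjusted p = 0.0009, 0.00058, 0.014, 0.011 and 0.52 in that order; 5-line difference 3.2e-05). TRIB3, a pseudokinase that feeds back on ATF4, rose in SUPB15 (2.61 ± 0.27) and RS411 (2.24 ± 0.17) but had its largest response in 697, where treated libraries held 48.3, 68.7 and 56.9 CPM and untreated ones 0, 1.9 and 0.511 CPM (edgeR adjusted p = 0.00059, 0.00078 and 0.032). ATF4 mRNA rose in SUPB15 (0.43 ± 0.13) and Nalm6 (0.48 ± 0.14; edgeR adjusted p = 0.043 and 0.029) and did not pass in RS411 (0.098 ± 0.15), REH (0.24 ± 0.13) or 697 (-0.46 ± 0.23).

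The amino acid response element TGATGNAA, to which ATF4 binds with C/EBP factors, was searched in the same promoter windows and occurred in 870 of 27305 (3.19%). It was found in 2 of 19 promoters of the stress response list (10.5%), those of CHAC1 and ATF3, and in 4 of 17 promoters of amino acid synthesis enzymes (23.5%), among them ASNS. These 3 are shown because CHAC1 and ATF3 were among the 15 largest contrasts and ASNS had a negative one, with the same motif upstream. The runs lie at chr15:40953232-40953299 (plus strand), chr1:212565186-212565253 (plus strand) and chr7:97872439-97872506 (minus strand), with matches in capitals; none of the motifs printed here contains another.
CHAC1: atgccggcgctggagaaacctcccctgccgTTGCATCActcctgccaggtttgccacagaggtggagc
ATF3: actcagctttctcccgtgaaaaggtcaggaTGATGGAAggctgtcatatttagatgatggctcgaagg
ASNS: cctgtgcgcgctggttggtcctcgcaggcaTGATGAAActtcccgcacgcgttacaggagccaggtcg

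Some amino acid synthesis enzymes rose in each of the 5 lines. Counting both directions, whether most members passed turned on single libraries in SUPB15, RS411 and 697. In SUPB15 9 of 23 rose and 2 fell, and in RS411 9 of 22 rose and 3 fell (background 12.9% and 7.58% higher). In Nalm6 7 of 23 rose and 2 fell, in REH 11 of 19 rose and 2 fell, and in 697 11 of 23 rose and 0 fell. The Nalm6 count of rising genes was 4 without its first untreated library, and 0 fell without replicate C of SUPB15 or replicate B of RS411. Without the first untreated library of the line, 12 rose and 3 fell in SUPB15 and 14 rose and 2 fell in 697. In RS411 7 rose without replicate B. Of 23, 10 differed among the lines. The pair lay below the other 3 for 3 of them (1 without the 3 treated libraries), of which ASNS served to choose the pair and is no support. The median contrast was -0.32. PSAT1, of serine synthesis, was at 194, 253 and 291 CPM with L-asparaginase and 83.8, 133 and 148 CPM untreated in SUPB15. In RS411 PSAT1 was at 155, 169 and 189 CPM treated and 65.2, 71.7 and 64.1 CPM untreated. It rose in all 5 lines, by 1.01 ± 0.22 in SUPB15, 1.35 ± 0.11 in RS411, 0.85 ± 0.22 in Nalm6, 2.11 ± 0.21 in REH and 2.12 ± 0.28 in 697 (largest edgeR adjusted p = 0.022). ASS1, which makes argininosuccinate, and CTH, which makes cysteine, gave no call in the pair and rose in 697, to 76, 95 and 101 CPM against 6.23, 11.1 and 12.5 CPM untreated for ASS1 and to 11.2, 14.3 and 12.9 CPM against 2.74, 2.81 and 1.77 CPM untreated for CTH (edgeR adjusted p = 0.01 and 0.014). BCAT1 had a contrast of -2.82, which rests on REH L-asparaginase replicate A, at 20.3 CPM against 0.0358 and 0.0269 CPM in the other 2.

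Of the amino acid transporters, 9 of 16 rose in SUPB15, 11 of 17 in RS411 (1 fell), 5 of 15 in Nalm6, 12 of 16 in REH and 5 of 17 in 697. In RS411 4 rose without L-asparaginase replicate B, and in 697 13 rose without its first untreated library. None of the 6 that differed among the lines had the pair on 1 side. Of 20 cytosolic tRNA synthetases, 9 rose and 2 fell in SUPB15, 5 rose in RS411 and 2 in Nalm6, 13 rose and 1 fell in REH, and 6 rose in 697 (background higher: 12.9%, 7.58%, 8.96%, 13.2% and 1.55% in that order). The rising count was 3 in SUPB15 without replicate C, 2 in RS411 without replicate B and 11 in 697 without its first untreated library. It was 9 in RS411 and 3 in Nalm6 without their first untreated libraries. WARS and NARS, which charge tryptophan and asparagine, had the pair below the other 3 (1 gene without the 4 first untreated libraries). NARS was at 303, 377 and 433 CPM with L-asparaginase and 322, 269.8 and 315 CPM untreated in SUPB15. In RS411 NARS was at 284, 318 and 329 CPM treated and 267, 236 and 234 CPM untreated. It passed in neither (log2 response 0.29 ± 0.16 in SUPB15 and 0.34 ± 0.12 in RS411). NARS rose by 0.55 ± 0.13 in Nalm6 and 1.18 ± 0.14 in REH (edgeR adjusted p = 0.014 and 0.00032; 5-line difference 0.014). WARS rose by 0.86 ± 0.15 in SUPB15 and by 3.14 ± 0.19 in 697 (edgeR adjusted p = 0.0042 and 0.0025; 5-line difference 2.3e-05).

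**Figure D4:**
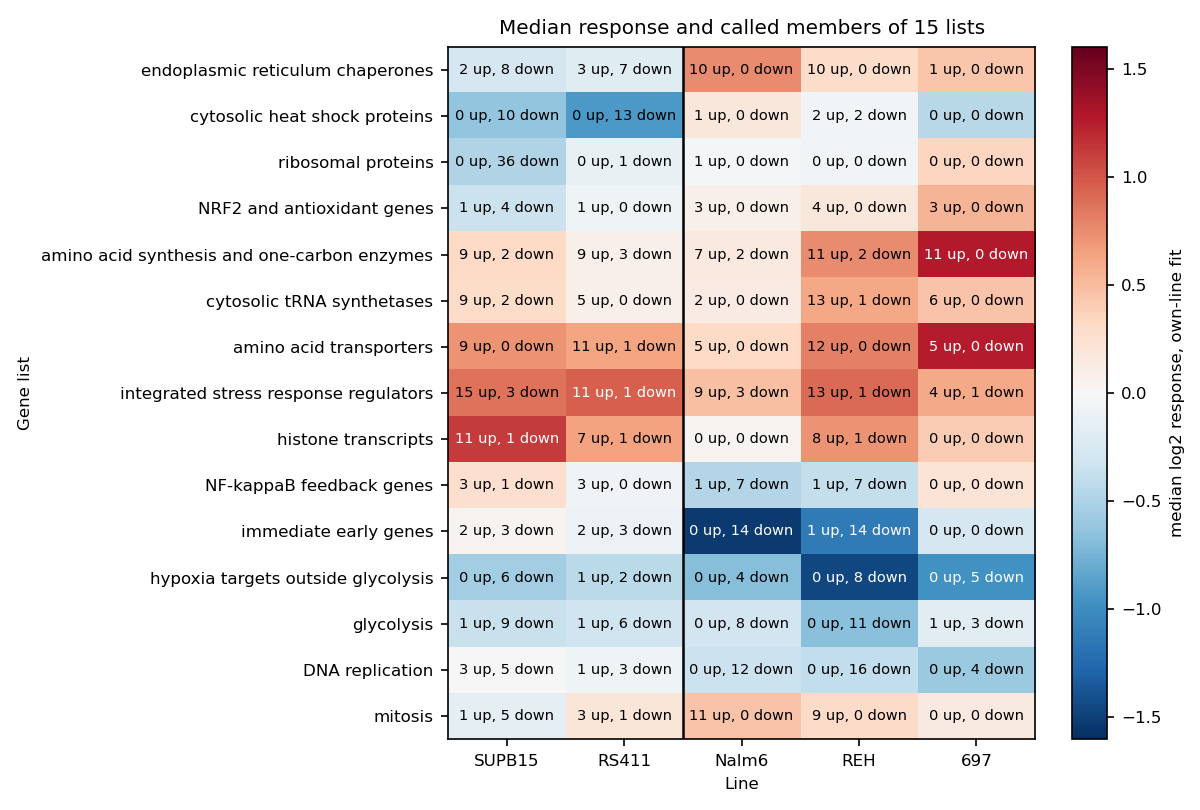
Median log2 response to L-asparaginase of 15 gene lists in each of the 5 lines, from the separate fit of each line; each cell also counts the genes called higher (up) and lower (down). Of 20 endoplasmic reticulum chaperones 8 fell in SUPB15 and 7 in RS411, and 10 rose in Nalm6 and in REH; of the immediate early genes 14 fell in Nalm6 and in REH.

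Immediate early genes, transcribed within minutes of a growth or stress signal, fell in Nalm6 and REH and mostly did not in the pair. In SUPB15 2 of 19 rose and 3 fell (4 rose with the replicate letter as a block), and in RS411 2 of 17 rose and 3 fell. In each of these lines 5 fell without its first untreated library and 1 without replicate C of SUPB15 or replicate B of RS411. In Nalm6 14 of 20 fell and 0 rose (background 11.8% lower), in REH 14 of 20 fell and 1 rose (13.3% lower), and in 697 0 passed (8 fell and 3 rose without its first untreated library). Of 22 genes, 14 differed among the lines and 7 of these had the pair above the other 3, beside 11.5% and 3.41% of all genes. That 7 was 8 without the 4 first untreated libraries and 8 without the 3 treated ones. The median contrast was 0.97. NR4A1, an orphan nuclear receptor, was at 3.43, 4.2 and 5.23 CPM with L-asparaginase and 1.41, 2.96 and 2.94 CPM untreated in SUPB15 and at 5.84, 6.29 and 5.62 CPM with L-asparaginase and 5.23, 4.91 and 3.9 CPM untreated in RS411. In Nalm6 NR4A1 was at 18.3, 15.8 and 15.6 CPM treated and 75.2, 110.2 and 99.2 CPM untreated. REH held 6.0, 4.72 and 4.03 CPM treated and 46.6, 40.7 and 57.1 CPM untreated, and 697 held 4.72, 5.07 and 4.52 CPM treated and 2.51, 25.4 and 7.74 CPM untreated. Untreated Nalm6 and REH libraries stood far above all others, and after treatment REH and 697 lay in the range of the pair.

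EGR1, a zinc-finger factor induced by ERK signalling, was at 1.81, 1.85 and 2.43 CPM with L-asparaginase and 0.788, 0.494 and 1.64 CPM untreated in SUPB15 and at 0.73, 0.686 and 0.484 CPM with L-asparaginase and 1.61, 1.11 and 0.992 CPM untreated in RS411. In Nalm6 EGR1 was at 0.558, 0.342 and 0.598 CPM treated and 4.06, 6.56 and 13 CPM untreated. REH held 0.791, 0.34 and 0.161 CPM treated and 14.1, 13.4 and 23.1 CPM untreated, and 697 held 3.08, 6.7 and 6.26 CPM treated and 9.3, 10.9 and 4.76 CPM untreated. Its log2 response was 1.03 ± 0.40 in SUPB15 and -0.94 ± 0.32 in RS411, neither of which passed, and it fell in Nalm6 (-3.95 ± 0.44) and REH (-5.56 ± 0.39; edgeR adjusted p = 0.00045 and 2.2e-05). RS411 and 697 responses lay close together, so the pair was not on 1 side. JUN, a subunit of AP-1, was at 6.81, 8.83 and 7.52 CPM with L-asparaginase and 2.22, 1.91 and 1.89 CPM untreated in SUPB15. In RS411 JUN was at 5.9, 15.2 and 14.8 CPM treated and 1.57, 4.76 and 3.79 CPM untreated. The groups did not overlap in the pair and overlapped in Nalm6 and REH. HBEGF, a ligand of the EGF receptor, was at 42.3, 49.7 and 66.5 CPM with L-asparaginase and 15, 14.7 and 30.2 CPM untreated in SUPB15. In RS411 HBEGF was at 26.7, 20.6 and 19.2 CPM treated and 15.2, 12.9 and 9.69 CPM untreated. It was at 115, 129 and 142 CPM with L-asparaginase and 238, 364 and 436 CPM untreated in Nalm6 and at 7.32, 9.46 and 7.07 CPM with L-asparaginase and 20.6, 21.5 and 34.9 CPM untreated in REH. The groups did not overlap in any of these 4 lines and ran upward in the pair and downward in the other 2.

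ERK feedback genes gave no common pattern. Of 15, 9 differed among the lines, but ETV5 alone had the pair on 1 side. ETV5, an ETS factor, was at 56.5, 54 and 54.3 CPM with L-asparaginase and 82.6, 102 and 111 CPM untreated in SUPB15. In RS411 ETV5 was at 4.8, 5.83 and 6.51 CPM treated and 15, 21.6 and 18.6 CPM untreated. It fell in both (log2 response -0.85 ± 0.13 and -1.68 ± 0.18, edgeR adjusted p = 0.0027 and 0.0021) and passed in none of the other 3 lines. DUSP6, the ERK phosphatase, parted the pair, at 0.011 ± 0.18 in SUPB15 and -1.56 ± 0.24 in RS411, and rose by 1.66 ± 0.15 in 697 (edgeR adjusted p = 0.97, 0.0069 and 0.01).

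Among 15 NF-kappaB feedback genes, 3 rose and 1 fell in SUPB15 (6 and 2 without its first untreated library, 5 and 2 with the replicate letter as a block) and 3 rose and 0 fell in RS411 (background 12.9% and 7.58% higher). In Nalm6 and in REH 7 fell and 1 rose (background 11.8% and 13.3% lower), and 3 genes had the pair above the others. RELB, a subunit of the noncanonical complex, was at 12.7, 14.2 and 15 CPM with L-asparaginase and 4.36, 8.28 and 8.1 CPM untreated in SUPB15. In RS411 RELB was at 19.9, 18 and 21.7 CPM treated and 6.18, 8.9 and 9.09 CPM untreated. It rose in both, without overlap (edgeR adjusted p = 0.014 in SUPB15 and 0.0046 in RS411). It fell in Nalm6 to 2.79, 2.36 and 2.76 CPM, against 4.09, 6.22 and 5.5 CPM untreated (edgeR adjusted p = 0.008). TNFAIP3, which ends NF-kappaB signalling, rose by 0.72 ± 0.11 in SUPB15 and 1.13 ± 0.19 in RS411 and fell in REH (-0.38 ± 0.12), with edgeR adjusted p = 0.0027, 0.0098 and 0.039 in that order.

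Hypoxia targets fell in part. Of 11 tested, 5 differed among the lines, all 5 with the pair above the other 3, and the median contrast was 0.65. Without the 3 treated libraries 2 differed with the pair above. Among all genes tested, 11.5% differed and 3.41% did so with the pair above. Within lines, 6 of 11 fell in SUPB15, 2 of 9 in RS411 (1 rose), 4 of 10 in Nalm6, 8 of 11 in REH and 5 of 10 in 697. Background lower shares were 13.2%, 5.19%, 11.8%, 13.3% and 0.849% in that order. In RS411 0 fell without L-asparaginase replicate B and 4 without its first untreated library. P4HA1, a collagen prolyl hydroxylase, fell in all 5 lines, with log2 responses of -0.81 ± 0.15 in SUPB15, -0.64 ± 0.10 in RS411, -1.02 ± 0.24 in Nalm6, -2.25 ± 0.27 in REH and -1.73 ± 0.19 in 697 (largest edgeR adjusted p = 0.015; 5-line difference 0.0084). Its partner isoform P4HA2 was at 2.37, 3.22 and 2.4 CPM with L-asparaginase and 1.46, 2.45 and 1.98 CPM untreated in SUPB15 and at 11.9, 13.1 and 13.7 CPM with L-asparaginase and 17.2, 21.5 and 17.7 CPM untreated in RS411. In Nalm6 P4HA2 was at 4.99, 4.13 and 3.79 CPM treated and 8.63, 8.4 and 20.7 CPM untreated. REH held 2.97, 5.43 and 7.31 CPM treated and 26.2, 42 and 67 CPM untreated, and 697 held 1.4, 1.86 and 1.49 CPM treated and 7.47, 14.6 and 8.1 CPM untreated. Treated libraries lay below untreated ones in the other 3 lines and in RS411, and SUPB15 overlapped.

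Of 22 glycolysis genes, 9 fell in SUPB15, 6 in RS411, 8 in Nalm6, 11 in REH and 3 in 697 (background lower: 13.2%, 5.19%, 11.8%, 13.3% and 0.849% in that order). The falling count was 3 in SUPB15 without replicate C and 2 in RS411 without replicate B. It was 13 in RS411 and 10 in 697 without their first untreated libraries, and 19 in REH with the replicate letter as a block. The pair lay above the other 3 for 4 genes. PFKFB4, which sets the level of the glycolytic activator fructose bisphosphate, was at 1.32, 1.2 and 1.04 CPM with L-asparaginase and 1.29, 4.85 and 4.82 CPM untreated in SUPB15 and at 3.51, 3.39 and 3.74 CPM with L-asparaginase and 3.94, 6.2 and 5.74 CPM untreated in RS411. It was at 1.45, 1.61 and 1.99 CPM with L-asparaginase and 22.6, 34.4 and 88.8 CPM untreated in REH and at 2.29, 2.1 and 1.83 CPM with L-asparaginase and 12.9, 46.9 and 44.7 CPM untreated in 697. All treated libraries of the 5 lines lay between 1.04 and 3.74 CPM, and untreated libraries spanned 1.29 to 88.8 CPM. PDK1, a kinase that inhibits pyruvate dehydrogenase, gave 0.022 ± 0.11 in SUPB15 and 0.057 ± 0.10 in RS411, neither passing, and fell in the other 3, with -0.61 ± 0.15 in Nalm6, -1.23 ± 0.19 in REH and -1.0 ± 0.19 in 697 (edgeR adjusted p = 0.015, 0.0011 and 0.046). ENO2 rests on SUPB15 L-asparaginase replicate C, at 6.32 CPM against 0 and 0.0146 CPM, and is not read further.

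DNA replication genes fell in Nalm6 and REH. Of 28, 3 rose and 5 fell in SUPB15 and 1 rose and 3 fell in RS411. In Nalm6 12 fell, in REH 16 and in 697 4 (18 without its first untreated library), with 0 rising in these 3 lines. Background shares were 12.9% higher and 13.2% lower in SUPB15 and 7.58% higher and 5.19% lower in RS411. Lower shares were 11.8% in Nalm6, 13.3% in REH and 0.849% in 697. In the pair 2 rose and 1 fell in SUPB15 without replicate C, 7 rose and 6 fell without its first untreated library, and in RS411 0 passed without replicate B and 3 rose and 6 fell without its first untreated library. All 28 contrasts were positive, and the median contrast was 0.38. Of 28 genes, 11 differed among the lines and 9 of these had the pair above the other 3 (6 without the 3 treated libraries). These shares were 11.5% and 3.41% over all genes tested. E2F2, a cell cycle transcription factor, was at 332, 359 and 299 CPM with L-asparaginase and 144, 225 and 189 CPM untreated in SUPB15. In RS411 E2F2 was at 283, 291 and 286 CPM treated and 228, 237 and 256 CPM untreated. It was at 369.8, 326 and 283 CPM with L-asparaginase and 503, 728 and 589 CPM untreated in Nalm6 and at 159, 164 and 132 CPM with L-asparaginase and 234, 223 and 193 CPM untreated in REH. Treated libraries lay above untreated ones in the pair and below in Nalm6 and REH, with calls in SUPB15, Nalm6 and REH (edgeR adjusted p = 0.0079, 0.0055 and 0.012) and none in RS411. CDT1, which licenses origins, rose by 0.60 ± 0.15 in SUPB15 and fell in Nalm6 and REH, with -0.85 ± 0.16 and -0.79 ± 0.12 (edgeR adjusted p = 0.02, 0.0045 and 0.0011). CCNE1, the G1/S cyclin, fell in RS411 and in the 3 other lines, but by less in the pair (-0.26 ± 0.21 in SUPB15, not passing, and -0.78 ± 0.14 in RS411, against -1.02 ± 0.22 in Nalm6, -1.57 ± 0.14 in REH and -1.89 ± 0.21 in 697).

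CDKN1B, the cell cycle inhibitor p27, separated the lines too. It was at 80.1, 95.2 and 101 CPM with L-asparaginase and 80.01, 86.8 and 97.1 CPM untreated in SUPB15 and at 111, 110.0 and 104 CPM with L-asparaginase and 135, 155 and 119 CPM untreated in RS411. In Nalm6 CDKN1B was at 69.3, 68.6 and 62.2 CPM treated and 35.7, 52.5 and 40.00 CPM untreated. REH held 75.7, 81.8 and 95.1 CPM treated and 45.4, 37.1 and 40.7 CPM untreated, and 697 held 63.1, 54.7 and 57.6 CPM treated and 16.9, 18.7 and 20.6 CPM untreated. Nalm6, REH and 697 rose without overlap (edgeR adjusted p = 0.0089, 0.0002 and 0.011), while SUPB15 overlapped and RS411 lay lower without passing; the 5-line difference had an edgeR adjusted p of 1.3e-06. Untreated SUPB15 and RS411 libraries already stood above untreated libraries of the other 3 lines. Of 25 mitosis genes, 1 rose and 5 fell in SUPB15 and 3 rose and 1 fell in RS411. In Nalm6 11 rose and in REH 9, with 0 falling, and 0 passed in 697. Background shares were 12.9% higher and 13.2% lower in SUPB15 and 7.58% higher and 5.19% lower in RS411. Higher shares were 8.96% in Nalm6 and 13.2% in REH. In the pair the rising counts became 0 without replicate C of SUPB15 or replicate B of RS411 and the falling ones 2 and 0, and in RS411 7 rose without its first untreated library and 5 with the block. In 697 6 rose without its first untreated library, and in REH 17 rose with the replicate letter as a block. KIF20A, a kinesin of cytokinesis, was the only one of the 4 that differed among the lines to have the pair on 1 side (9 genes did without the 4 first untreated libraries, 2 without the 3 treated ones and 3 with the block), at 0.15 ± 0.12 and 0.12 ± 0.11 in SUPB15 and RS411 and 1.37 ± 0.22 in Nalm6 (edgeR adjusted p = 0.0023 in Nalm6).

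Histone transcripts rose in SUPB15 (11 of 15) and RS411 (7 of 15), and also in REH (8 of 15), but not in Nalm6 or 697 (0 each). Background higher shares were 12.9% in SUPB15, 7.58% in RS411 and 13.2% in REH, and 1 histone transcript fell in each of these lines. The RS411 count was 1 without L-asparaginase replicate B, and the 4 genes with the pair above the others became 1 without the 3 treated libraries. HIST1H2AC was at 1704, 2150.2 and 1961 CPM with L-asparaginase and 594, 630.2 and 366 CPM untreated in SUPB15. In RS411 HIST1H2AC was at 1163, 1067 and 1187 CPM treated and 533, 499.9 and 477 CPM untreated. Neither line had overlap, and the gene also rose in REH (1.09 ± 0.21, edgeR adjusted p = 0.0037). H3F3A, a replication-independent histone gene, went the other way: it fell in the pair, with -1.53 ± 0.13 in SUPB15 and -0.96 ± 0.11 in RS411 (edgeR adjusted p = 0.00032 and 0.0024) and was 0.039 ± 0.13, 0.0025 ± 0.12 and -0.086 ± 0.28 in Nalm6, REH and 697. It has processed copies that could share its reads.

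Of 15 NRF2 and antioxidant genes, 5 of the 6 that differed among the lines had the pair below (3 without the 3 treated libraries). The share of all genes that differed with the pair below was 2.21%. NQO1, a quinone reductase, gave 0.055 ± 0.17 in SUPB15 and 0.40 ± 0.22 in RS411, neither passing, and rose by 0.87 ± 0.20 in Nalm6, 1.12 ± 0.14 in REH and 2.06 ± 0.32 in 697 (edgeR adjusted p = 0.014, 0.00043 and 0.027). Its level was 17 to 20.1 CPM in untreated SUPB15 cells and 5.32 to 5.73 CPM in untreated REH cells. Ribosomal protein genes fell in SUPB15 (36 of 78, and 71 without its first untreated library) but in RS411 1 did, so this fall was not shared by the pair at the threshold. Background lower shares were 13.2% in SUPB15 and 5.19% in RS411. All 78 contrasts were negative (median -0.36) and 4 of 78 had the pair below the other 3 with a call (11 with the replicate block and 12 without the 4 first untreated libraries). By line the median log2 response was -0.49 in SUPB15, -0.12 in RS411, -0.03 in Nalm6, -0.04 in REH and 0.34 in 697. The negative contrasts thus hold a rise in 697, where 0 genes passed, beside the fall in SUPB15. RPL24 was at 288, 344 and 375 CPM with L-asparaginase and 991, 692 and 839 CPM untreated in SUPB15. In RS411 RPL24 was at 504, 591 and 614 CPM treated and 1126, 829 and 713 CPM untreated. Its log2 response was -1.33 ± 0.18 in SUPB15 (edgeR adjusted p = 0.0015) and -0.64 ± 0.19 in RS411 (edgeR adjusted p = 0.059).

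Of 14 BCL2 family genes 5 differed among the lines, 2 of them with the pair above (1 without the 3 treated libraries). Of 18 B-lineage transcription factors 7 differed, 1 with the pair above (5 without the 4 first untreated libraries, 2 without the 3 treated ones). Beside these stand 11.5% and 3.41% of all genes tested. VEGFA and TXNIP, given last, belong to other lists. PMAIP1, the BH3-only protein NOXA, was at 224, 303 and 309.9 CPM with L-asparaginase and 97.5, 100.1 and 129 CPM untreated in SUPB15 and at 206, 215 and 215 CPM with L-asparaginase and 128, 105 and 127 CPM untreated in RS411. It rose by 1.35 ± 0.16, 0.83 ± 0.12 and 0.55 ± 0.14 in SUPB15, RS411 and Nalm6 (edgeR adjusted p = 0.0011, 0.0062 and 0.019) and passed in neither REH nor 697. MCL1, the survival protein that NOXA binds, passed in REH alone, where it fell (-0.80 ± 0.10, edgeR adjusted p = 0.0004); in SUPB15 and RS411 it gave 0.12 ± 0.13 and 0.027 ± 0.12. BACH2, a B-lineage repressor, was lower with L-asparaginase without overlap in all 5 lines, with -0.96 ± 0.28 in SUPB15 and -0.62 ± 0.18 in RS411, against -1.29 ± 0.15 in Nalm6, -1.55 ± 0.11 in REH and -1.72 ± 0.19 in 697 (5-line difference, edgeR adjusted p = 0.047). That p failed the threshold in 24 of 36 other settings, with 0.119 as the highest. VEGFA, an angiogenic factor, was at 17.7, 19.1 and 20.9 CPM with L-asparaginase and 5.57, 3.97 and 8.1 CPM untreated in SUPB15. In RS411 VEGFA was at 35.4, 25.5 and 24.4 CPM treated and 17.6, 11.5 and 12.9 CPM untreated. It rose in both (edgeR adjusted p = 0.0019 and 0.021). TXNIP, an arrestin that restrains glucose uptake, rose by 1.73 ± 0.29 in SUPB15 and 1.45 ± 0.29 in RS411 (edgeR adjusted p = 0.0035 and 0.017) and passed in none of the other 3.

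Lists in which 0 genes had the pair on 1 side with a call (3 or fewer on either side without the 4 first untreated libraries) included amino acid transporters, ribosome biogenesis, cytokine feedback, the MYC network and translation factors with terminal oligopyrimidine messages. For the MYC network 0 of 10 and for those translation factors 0 of 14 differed among the lines at all. Of the cholesterol synthesis genes, 9 of 23 fell in SUPB15, 8 of 24 in RS411, 9 of 23 in Nalm6, 14 of 23 in REH and 6 of 24 in 697. Background lower shares were 13.2%, 5.19%, 11.8%, 13.3% and 0.849% in that order. With a call, 1 of 24 had the pair on 1 side (2 without the 4 first untreated libraries and 0 without the 3 treated ones). The falling count was 5 in SUPB15 without replicate C and 5 in RS411 without replicate B. Without the first untreated library of the line it was 14 in SUPB15, 14 in RS411 and 19 in 697.

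SUPB15 and RS411 differed from each other for 101 genes (0.513%), 41 higher and 60 lower in SUPB15; with the replicate block there were 262. MTUS2, a microtubule-associated protein, was at 5.72, 5.57 and 5.1 CPM with L-asparaginase and 13.3, 13 and 13.8 CPM untreated in SUPB15. In RS411 MTUS2 was at 3.79, 5.14 and 5.22 CPM treated and 1.29, 1.26 and 1.37 CPM untreated. The 2 responses ran in opposite directions without overlap and differed by -3.14 ± 0.39 (log2 ± SE, edgeR adjusted p = 6.2e-05). IL12RB2, an interleukin receptor chain, was at 35.2, 25.8 and 22.1 CPM with L-asparaginase and 70.3, 61.8 and 67.3 CPM untreated in SUPB15. In RS411 IL12RB2 was at 1.54, 1.68 and 1.42 CPM treated and 0.558, 0.499 and 0.343 CPM untreated. Its responses again ran in opposite directions (-3.03 ± 0.35, edgeR adjusted p = 2.6e-05). APBA1, a synaptic adaptor, was at 2.11, 1.72 and 2.13 CPM with L-asparaginase and 0.141, 0.292 and 0.231 CPM untreated in SUPB15. In RS411 APBA1 was at 25.1, 15.7 and 15.1 CPM treated and 31.5, 16.3 and 18.1 CPM untreated, where the groups overlapped (edgeR adjusted p of the difference = 0.0078). DIP2C was at 40.3, 33.9 and 30.6 CPM with L-asparaginase and 43.5, 41.1 and 39.2 CPM untreated in SUPB15, overlapping. In RS411 DIP2C was at 2.64, 1.71 and 2.2 CPM treated and 0.523, 0.166 and 0.361 CPM untreated, without overlap (edgeR adjusted p of the difference = 3.9e-06). Leaving out 1 library, the count of 101 became 46 without SUPB15 L-asparaginase replicate C and 203 without the first untreated library of 697.

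The contrast is the difference between treated levels minus the difference between untreated levels, so untreated values enter it directly. By edgeR at the same threshold, levels differed between the pair and the other lines for 48.1% of the genes tested after treatment and for 40.6% in untreated cells. For the 672 genes above, SUPB15 and RS411 stood a median 0.49 log2 above the other lines after treatment and 0.19 below them before it (median differences 0.49 and -0.19), and 442 of them had untreated differences of the opposite sign to the contrast. For the 435 genes below, the medians were -0.61 treated and 0.13 untreated, with 266 of opposite sign. The contrast subtracts the untreated difference, and the sign was opposite for 11329 of all 19702 genes tested. Of the 15 largest contrasts 12 had lower untreated levels in the pair, with medians of 0.58 treated and -1.47 untreated. Of the 15 smallest, 5 had opposite untreated differences, and the medians were -1.71 treated and -0.20 untreated. The upper end thus held many genes that were lower in the pair before treatment, and the lower end mostly genes that came to differ after it.

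**Figure D5:**
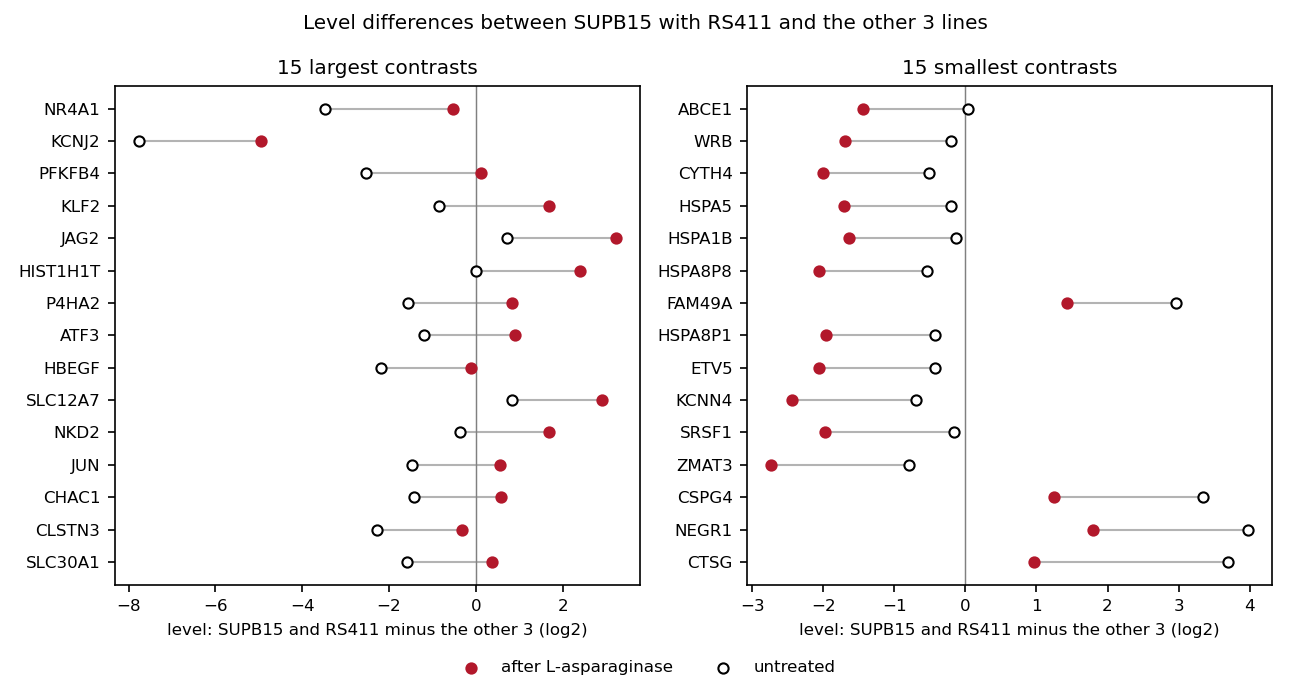
Difference in mean log2 level between SUPB15 with RS411 and Nalm6, REH and 697, after L-asparaginase (filled) and untreated (open), for the 30 genes with the largest and smallest contrasts; the line between points is the contrast. Of the 15 largest contrasts, 12 had untreated differences below 0; SRSF1, ABCE1 and WRB had untreated differences of -0.16, 0.032 and -0.20.

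DND41 and CEM, 2 T-cell leukemia lines treated in the same way, were not used to choose the pair. The ASNS response was 0.50 in DND41 and 2.49 in CEM (log2), a difference of -1.99 (edgeR adjusted p = 0.0035). L-asparaginase changed 32.2% of genes in DND41 and 23% in CEM. DND41 and CEM differed in response for 804 of 17369 genes (4.63%; 2.11% higher and 2.52% lower in DND41), or 272 without DND41 L-asparaginase replicate C and 1544 without the first untreated library of DND41. Of the 672 genes above in the pair, 635 were tested here and 38 (5.98%) were higher and 17 (2.68%) lower in DND41. Of the 435 below, 409 were tested and 9 (2.20%) were higher and 26 (6.36%) lower, beside 2.18% and 2.63% of the 16212 genes tested in both comparisons. Across 9187 genes the contrast and the DND41 minus CEM difference had a Pearson r of 0.079 and a Spearman rho of 0.12. Between the T-cell lines 55 of the 635 and 35 of the 409 genes were called, beside 781 of the 16212 tested in both comparisons. Most genes of either set, like most genes at large, had no call.

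Single genes went either way between the T-cell lines. JUN was higher in DND41 by 3.52 (edgeR adjusted p = 0.00052), on the same side as in the pair. CHAC1 and DDIT3 were lower in DND41, by -2.24 and -1.66 (edgeR adjusted p = 0.006 and 0.00058), and ETV5 and ABCE1 were higher, by 0.70 and 0.82 (edgeR adjusted p = 0.028 and 0.032), all 4 on the opposite side. HSPA5 had log2 responses of -1.61 in DND41 and -1.15 in CEM and HSPA8 of -1.37 and -1.5, with no call for the difference (edgeR adjusted p = 0.42 and 0.9). Of the 20 endoplasmic reticulum chaperones 2 were called lower and 0 higher in DND41 than in CEM, and of the 17 heat shock proteins 0 were called. Both lists had negative median log2 responses in both T-cell lines. These were -0.38 in DND41 and -0.24 in CEM for the chaperones and -0.37 and -0.54 for the heat shock proteins. Of 19 integrated stress response regulators, 7 were called lower and 1 higher in DND41 than in CEM, with a median difference of -0.64, on the opposite side to the pair.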

How the data were processed

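RNA-seq of total RNA was available as tables of gene counts for each of the 7 lines, which the authors deposited as raw, unnormalized counts. The reference build was hg19, per the submitters' processing notes. The aligner, the counter and its strand setting were not given in the sources used here. Reads of antisense transcripts and near-identical copies therefore cannot be told apart. Symbols that had become calendar dates (26 to 28 per table) were not named, and 2 repeated names were left out. The 50648 joined genes were fitted with edgeR 4.0.16 in R 4.3.3 (TMM scaling, filterByExpr with a minimum count of 10, quasi-likelihood F test, Benjamini-Hochberg adjustment over all genes tested, threshold 0.05): each line alone, the 30 libraries of 5 lines jointly (19702 genes) and DND41 with CEM (17369 genes). DESeq2 1.42.0, other scaling factors, no filter on low counts, a replicate block and the omission of libraries were alternatives. CPM values use TMM-scaled library sizes. The scripts were tested on simulated data.

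Depth was 15071218 to 77143333 counts per library, and no 2 libraries of a group agreed within sampling noise (lowest chi-square per degree of freedom 15.0). Table columns carry replicate letters in 4 of these lines and numbers in 697, and the labels do not say that they mark a shared day. Deviations of same-letter libraries correlated across 9454 genes by at least 0.12 in SUPB15, 0.17 in RS411 and 0.29 in REH, so that the letters were taken to pair these libraries. In RS411 libraries of different letters reached 0.238. The fit without the block stayed the main one, and blocked values are given where they move a count that reaches 3 by more than 1.5 times. The lowest values were 0.04 in Nalm6 and -0.06 in 697, whose libraries were not taken as paired. The blocked fits still set a block by letter or number in every line, Nalm6 and 697 included.

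Genes named are the 15 largest and 15 smallest contrasts under the conditions given with them, 12 stress genes, the 5 largest differences in each direction between SUPB15 and RS411, and up to 4 members of each list with the largest absolute contrast among those that differed across the 5 lines. A few of these genes are not reported here. Others are named where the text says so or as the remaining members of a counted group. The lines, the members and the gene lists were chosen with earlier results of these data known. Promoter windows are from RefSeq (GRCh38.p14) and were matched by symbol.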

Additional observations from a re-analysis of the deposited data

Results flagged for a closer look

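Responses differed among the 5 B-precursor lines for 2271 genes, between SUPB15 and RS411 for 101 genes and between DND41 and CEM for 804 genes, each by a test of the difference itself. Between SUPB15 and RS411, large positive differences in log2 response included LTBP2 at 7.91, KAZN at 5.46, SRGAP3 at 4.84 and APBA1 at 3.35. KAZN and SRGAP3 rest on SUPB15 L-asparaginase replicate C, where KAZN was at 0.64 against 0 and 0.0292 CPM in the other 2 treated libraries and SRGAP3 at 2.35 against 0.226 and 0.0437 CPM. LTBP2 was at 0.565, 0.277 and 0.48 CPM in treated SUPB15 libraries and listed at 0 in all 3 untreated ones, so that its fitted value is no bound on the change. The largest negative differences were ISYNA1 at -3.82, CDH4 at -3.38, MTUS2 at -3.14, IL12RB2 at -3.03 and DIP2C at -2.96. ISYNA1 was at 0, 0.0146 and 0 CPM in treated and 0.169, 0.157 and 0.142 CPM in untreated SUPB15 libraries, and CDH4 at 0.281, 0.476 and 0.484 CPM in treated and 0, 0.0369 and 0.0722 CPM in untreated RS411 libraries. Among the 30 genes with the largest and smallest contrasts, 4 also differed between DND41 and CEM: JUN by 3.52, CHAC1 by -2.24, ETV5 by 0.698 and ABCE1 by 0.815 (log2).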

How the results depend on the processing

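The joint model was fitted under 36 alternative settings. Of 5986 comparisons of a named gene's value with its main value, 5388 kept direction and side of the threshold, 528 lost the threshold, 10 gained it, and 60 changed sign. Of the 60, 52 were of contrasts no larger than their SE or of genes that did not pass the 5-line test, up to 1.41 for TRIB3, 0.848 for BMF and 0.716 for HRK without 697 and -0.50 for PIM1 without REH. The other 8 were contrasts without 697 (ATF4 -0.081, PHGDH 0.0062, SLC43A1 0.178, DUSP4 0.105), without Nalm6 (ICAM1 -0.033, LCK -0.127) and for ARRDC3 with RS411 alone (-0.478) or without REH (-0.146); the cause was not tested beyond the lines omitted. With the replicate block, counts were 6683 in REH, 16 in 697, 262 between SUPB15 and RS411 and 1696 between DND41 and CEM. With DESeq2 they were 1659 in 697, 3891 for the 5-line difference, 336 between SUPB15 and RS411 and 1396 between DND41 and CEM. Without the first untreated library of 4 lines, the 5-line difference counted 5013 genes, the contrast 3321 and SUPB15 against RS411 557; without the 3 treated libraries that held genes unseen in the rest of their line these were 1432, 1116 and 35. With RS411 alone in place of the pair the contrast counted 684.

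Leaving out 1 library at a time gave 1716 to 6328 genes in SUPB15, 272 to 4517 in RS411, 1683 to 3743 in Nalm6, 2429 to 4560 in REH, 5 to 3664 in 697, 1750 to 3395 for the 5-line difference, 1345 to 2762 for the contrast, 46 to 203 between SUPB15 and RS411 and 272 to 1544 between DND41 and CEM. The highest count came from omitting a first untreated library in every case. Counts of calls are therefore weak ground for ranking lines. Low counts limit genes below about 1 CPM, where 1 library can set a value.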
